A study of Homo sapiens with 4 samples.

Results

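The genes described here encode the proteins of the mitochondrial ribosome that carry an MRPL or MRPS symbol. Membership was set by symbol, as every row of the count table named MRPL or MRPS with a number and at most a closing letter A, B or C. This gave 76 of 56638 rows. The set was picked for description with earlier results of these data known. The cells were MV4;11, an established human cell line from acute myeloid leukaemia that carries the fusion gene KMT2A-AFF1 and an activated FLT3 receptor, parental in both groups. CU-T12-9, a synthetic compound that activates the receptor pair TLR1/TLR2, was given at 1 µg/mL for 24 h to 2 libraries, and vehicle to the other 2. The labels name the vehicle as PBS in the protocol and as DMSO for the samples, and it is called DMSO here. The labels do not state whether the 2 libraries of each group derive from separate cultures. The p-values therefore measure spread between these libraries only, and that spread may be technical.

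The mitochondrial ribosome sits in the mitochondrial matrix and translates the few messenger RNAs of the mitochondrial genome, which encode core subunits of the respiratory chain and ATP synthase. Its large subunit joins amino acids and releases the chain through an exit tunnel towards the inner membrane, and its small subunit reads the codons. The ribosomal RNAs come from the mitochondrial genome, whereas all of its proteins are encoded in the nucleus, made in the cytosol and imported. Many of the proteins have a counterpart in bacteria, and others exist only in mitochondria.

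The 4 libraries held 23087102 to 25867733 counted reads, with reads for 19568 to 20039 genes each. Levels are given in CPM, the read count scaled to a library size adjusted by TMM, where 1 read was worth 0.0384 to 0.0442 CPM and a floor of 3 reads 0.115 to 0.133 CPM. All 10 marker genes set for this leukaemia line were detected, 5 being lower under CU-T12-9 (among them MPO, CSPG4 and ELANE) and 5 higher (among them PTPRC, SPI1 and HOXA9). The 5 erythroid markers had 0 reads in every library and the 5 T cell markers summed to at most 0.221 CPM. The summed B cell markers lay between 1.09 and 1.90 CPM and the summed epithelial markers between 3.46 and 6.22 CPM, with EPCAM, KRT19 and CDH1 at 0. The fibroblast markers summed to 0.376 and 0.499 CPM under DMSO and to 0.972 and 1.45 CPM under CU-T12-9, with DCN at 0 reads in both DMSO libraries and at 21 and 15 reads under CU-T12-9. The part of these markers in the results below was not tested.

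Promoters of 3 of the 6 members with the largest falls are shown first, because they carry between them the 4 motifs searched in all member promoters. The rest of the 6, MRPL24, MRPS6 and MRPL11, held none of the 4 motifs. The sequences are RefSeq's, build GRCh38.p14, and cover only bases upstream of the annotated start, written 5′ to 3′ on the strand of the gene. Capitals mark the motif. MRPL17 (chr11:6683341-6683460, minus strand) holds, in capitals, the motif known to be bound by the respiratory gene activator NRF1, beginning at position -81, where -1 is the last base before the start. MRPL33 (chr2:27771599-27771718, plus strand) holds CCGGAAG, the core bound by ETS factors such as GABPA, at position -8. In MRPL36 (chr5:1799865-1799893, minus strand) the capitals are CACGTG, the E-box bound by MYC and related factors, at position -56, and AAGATGGC, the YY1 motif, on the opposite strand at position -35.
MRPL17: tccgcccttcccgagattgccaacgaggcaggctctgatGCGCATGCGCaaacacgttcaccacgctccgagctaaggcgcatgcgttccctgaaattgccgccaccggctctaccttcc
MRPL33: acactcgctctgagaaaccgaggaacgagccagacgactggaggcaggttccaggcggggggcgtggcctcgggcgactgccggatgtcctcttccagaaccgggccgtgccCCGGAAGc
MRPL36: CACGTGacccccccccccgccGCCATCTT

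Most mitochondrial ribosomal protein genes were lower after CU-T12-9. Of the 75 members that passed the filter on low counts, 66 fell and 3 rose at an adjusted p under 0.05, and 6 were not past the threshold (quasi-likelihood test of edgeR, Benjamini-Hochberg adjusted over 14018 genes). Of all genes tested, 33.2% were called lower and 32% higher. The median log2 fold change of the members was -0.46 (quartiles -0.69 and -0.25), beside 0.00 for all genes tested (-0.44 to 0.45). The members spanned -1.44 to 0.42 with an SD of 0.34, while the SD over all genes was 1.2. The filter can remove only genes with few counted reads, and the 1 member that it left out was MRPL30.

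Both CU-T12-9 libraries lay below both DMSO libraries in 67 members, above them in 4, and the groups overlapped in 4. In all genes tested the corresponding shares were 41.7% below and 40.5% above. The falls were mostly of moderate size: 11 of the 66 were under 1.2-fold, 29 between 1.2-fold and 1.5-fold, 23 between 1.5-fold and 2-fold and 3 over 2-fold. Tested against a change of 1.2-fold instead of no change, 48 members were lower and 0 higher, where 23.8% and 22.9% of all genes were called. Against a change of 1.5-fold 18 members were lower and 0 higher, beside 12% and 12.6% of all genes. In a bulk library fewer cells with a transcript and less of it per cell cannot be told apart, and a CPM is a share of the library's reads.

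**Figure D1:**
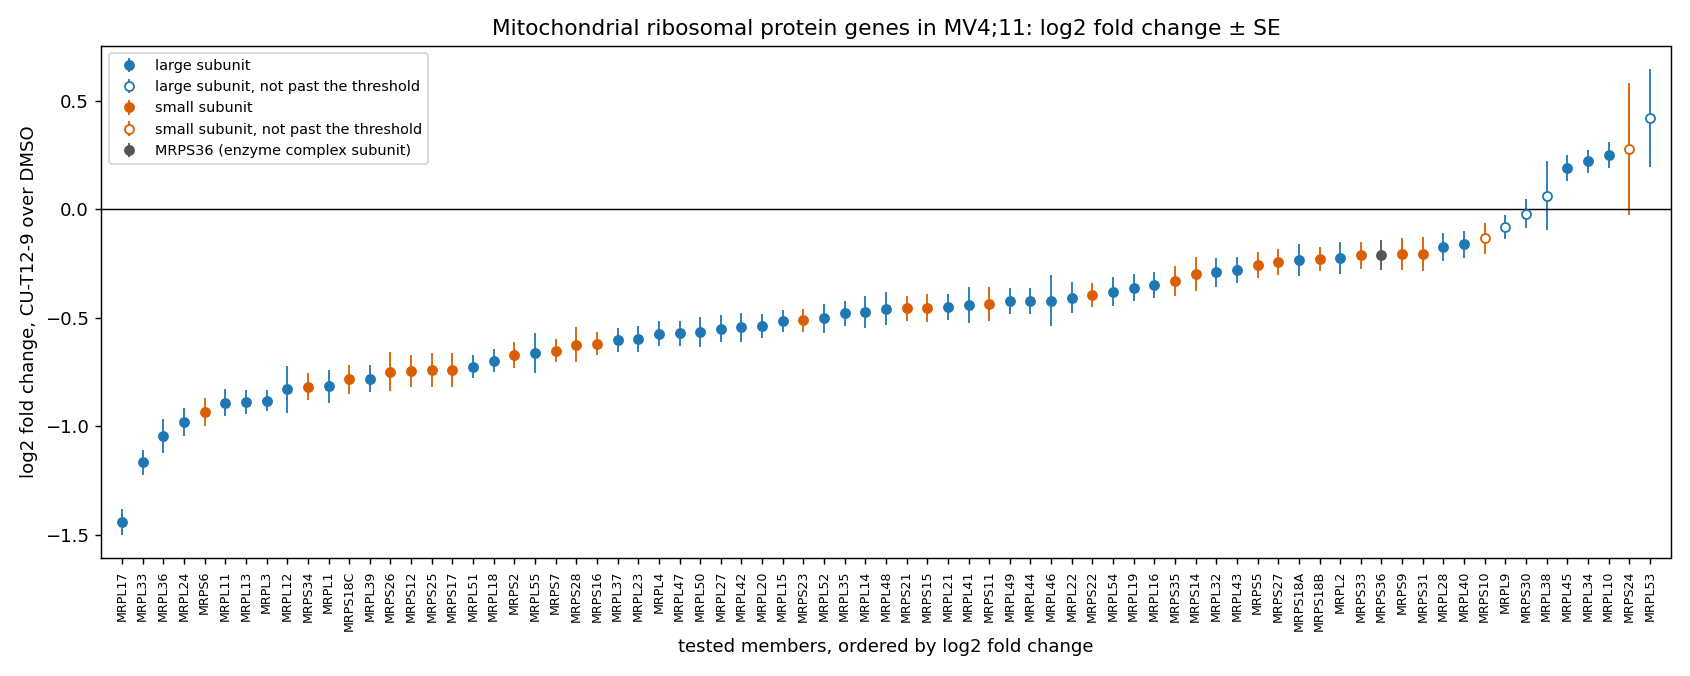
Fitted log2 fold change (CU-T12-9 over DMSO, vertical axis) of the 75 tested members in order of size, with bars of 1 SE. Blue points are large subunit proteins, orange points small subunit proteins and grey MRPS36, and open points did not pass the threshold. The points run from -1.44 for MRPL17 to 0.42 for MRPL53, and 66 filled points lie below 0.

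The summed level of all 76 members was 5092 and 5133 CPM in the DMSO libraries and 3542 and 3627 CPM in the CU-T12-9 libraries. The groups did not overlap, and the ratio of the group means was -0.51 on the log2 scale, or 1.43-fold. An exact permutation test of 2 against 2 libraries cannot give a p below 0.333, so none was used for the sum. Members of the large subunit summed to 3240 and 3273 CPM under DMSO and to 2232 and 2283 CPM under CU-T12-9. Members of the small subunit summed to 1817 and 1822 CPM and to 1280 and 1313 CPM. The group means differed by -0.53 for the large and -0.49 for the small subunit on the log2 scale, and the large-to-small ratio of these sums went from 1.78 and 1.80 to 1.74 and 1.74.

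In the large subunit 41 of 48 tested members fell and 3 rose. The median log2 fold change there was -0.48. The largest fall was that of MRPL17, a protein at the polypeptide exit tunnel and counterpart of bacterial L17. Its level was 96.0 and 99.4 CPM under DMSO and 36.5 and 35.4 CPM under CU-T12-9 (97.7 ± 2.42 against 36.0 ± 0.791, SD, n = 2). The libraries of the groups were far apart, with a log2 fold change of -1.44 (SE 0.06, edgeR adjusted p = 5.81e-08).

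MRPL33, counterpart of the small bacterial protein L33, stood at 111.5 CPM in both DMSO libraries and at 51.1 and 48.3 CPM under CU-T12-9. This was a log2 fold change of -1.17 (SE 0.06, edgeR adjusted p = 1.76e-07). MRPL36, counterpart of bacterial L36 and one of the smallest proteins of the subunit, had 42.7 and 44.8 CPM under DMSO and 20.01 and 22.4 CPM under CU-T12-9, a log2 fold change of -1.05 (SE 0.08, edgeR adjusted p = 3.14e-06). These 3 genes were the only members whose fitted log2 fold change was below -1, a size reached by 9.46% of all genes tested.

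Next in size came MRPL24, another protein near the exit tunnel, with 71.9 and 75.04 CPM under DMSO and 38.3 and 36.2 CPM under CU-T12-9 (log2 fold change -0.98, SE 0.06, edgeR adjusted p = 1.05e-06). MRPL11, which forms the base of the stalk where translation factors dock, had 79.4 and 82.1 CPM and then 41.9 and 45.3 CPM (log2 fold change -0.89, SE 0.06, edgeR adjusted p = 2.03e-06). In both genes the groups were far apart compared with the gap between libraries of a group. MRPL3, which reaches towards the catalytic centre, was the member with most reads, at 243 and 247 CPM under DMSO and 132 and 134 CPM under CU-T12-9 (log2 fold change -0.88, SE 0.05, edgeR adjusted p = 3.95e-07).

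Of the 6 proteins placed at the exit tunnel 5 fell and 1 rose. Beside MRPL17 and MRPL24 these were MRPL23 (log2 fold change -0.60), MRPL47 (-0.57) and MRPL22 (-0.41). The riser was MRPL45, known to tether the ribosome to the inner membrane, with 58.0 and 62.6 CPM under DMSO and 68.9 and 68.6 CPM under CU-T12-9. Its log2 fold change was 0.19 (SE 0.06, edgeR adjusted p = 0.0203). The groups did not overlap, but the adjusted p was 0.0601 with DESeq2, and 0.346 and 0.0646 without the first and the second DMSO library.

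The 4 proteins of the stalks, which recruit translation factors or guide the outgoing tRNA, divided in the same way. MRPL12, the counterpart of L7/L12 that contacts the translation GTPases, had 36.9 and 36.4 CPM under DMSO and 18.004 and 23.3 CPM under CU-T12-9 (log2 fold change -0.83, SE 0.11, edgeR adjusted p = 0.000133). MRPL1 had 47.1 and 42.3 CPM and then 25.1 and 25.8 CPM (log2 fold change -0.82, SE 0.08, edgeR adjusted p = 1.37e-05). Both fell together with MRPL11, with no overlap between groups. MRPL10, the anchor that holds MRPL12 on the ribosome, rose from 41.2 and 42.8 CPM to 49.7 and 50.3 CPM (log2 fold change 0.25, SE 0.06, edgeR adjusted p = 0.00523). Without the first DMSO library its adjusted p was 0.114.

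The third riser was MRPL34, counterpart of bacterial L34, with 69.9 and 70.2 CPM under DMSO and 80.5 and 82.8 CPM under CU-T12-9 (log2 fold change 0.22, SE 0.05, edgeR adjusted p = 0.00544). The groups were clearly apart, yet the adjusted p was 0.0958 and 0.0866 without the first and the second DMSO library. None of the 3 rises reached 1.2-fold, and none was called in the test against a 1.2-fold change.

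In the central protuberance, the crest of the large subunit that faces the small one, 6 of 7 members fell. MRPL18 (log2 fold change -0.70), MRPL55 (-0.66), MRPL27 (-0.55), MRPL48 (-0.46), MRPL46 (-0.42) and MRPL40 (-0.16) were past the threshold. MRPL40 passed it narrowly (edgeR adjusted p = 0.0476). MRPL38, at 6.14 and 4.84 CPM under DMSO and 6.07 and 5.44 CPM under CU-T12-9, had overlapping groups and was not called (log2 fold change 0.06, SE 0.16, edgeR adjusted p = 0.745).

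In the small subunit 24 of 26 members fell and 0 rose. Their median log2 fold change was -0.45, with a range from -0.93 to 0.28. The largest fall was that of MRPS6, counterpart of the bacterial S6 that binds next to S18. It had 55.4 and 54.1 CPM under DMSO and 29.1 and 28.2 CPM under CU-T12-9 (log2 fold change -0.93, SE 0.06, edgeR adjusted p = 1.56e-06). MRPS34, a mitochondria-specific protein, had 143 and 147 CPM and then 77.4 and 86.8 CPM (log2 fold change -0.82, SE 0.06, edgeR adjusted p = 4.28e-06). The CU-T12-9 libraries of both genes lay far below the DMSO libraries.

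All 9 mitochondria-specific members of the small subunit fell. After MRPS34 they were MRPS26 (log2 fold change -0.75), MRPS25 (-0.74), MRPS23 (-0.51), MRPS22 (-0.39), MRPS35 (-0.33), MRPS27 (-0.24), MRPS33 (-0.21) and MRPS31 (-0.20). MRPS31 passed the threshold narrowly (edgeR adjusted p = 0.0451). Among the 15 small subunit members with a bacterial counterpart 13 fell, among them MRPS12 of the decoding centre (-0.74), MRPS17 (-0.74), MRPS2 (-0.67), MRPS7 (-0.65) and MRPS16 (-0.62). Across both subunits 39 of 44 tested members with a bacterial counterpart fell and 2 rose (median -0.54), and 23 of 27 mitochondria-specific members fell and 1 rose (median -0.42). The difference between these medians was not tested.

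The S18 family holds 3 human genes for versions of 1 bacterial protein. MRPS18C, the version in the position of bacterial S18, had 48.0 and 48.9 CPM under DMSO and 27.2 and 29.2 CPM under CU-T12-9 (log2 fold change -0.78, SE 0.07, edgeR adjusted p = 8.09e-06). MRPS18B, also of the small subunit, had 79.0 and 82.1 CPM and then 69.5 and 68.2 CPM (log2 fold change -0.23, SE 0.06, edgeR adjusted p = 0.00554). MRPS18A, which is built into the large subunit despite its name, had 37.7 and 39.2 CPM and then 31.2 and 34.2 CPM (log2 fold change -0.23, SE 0.07, edgeR adjusted p = 0.0182). All 3 fell with no overlap between groups, and MRPS18C had the largest fall by size, although the differences between these fold changes were not tested. The smaller falls depended on single libraries: the adjusted p was 0.0924 for MRPS18B without the second DMSO library, and 0.0518, 0.131 and 0.0771 for MRPS18A without the first DMSO, the second DMSO and the first CU-T12-9 library. By DESeq2 it was 0.0998 for MRPS18A.

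**Figure D2:**
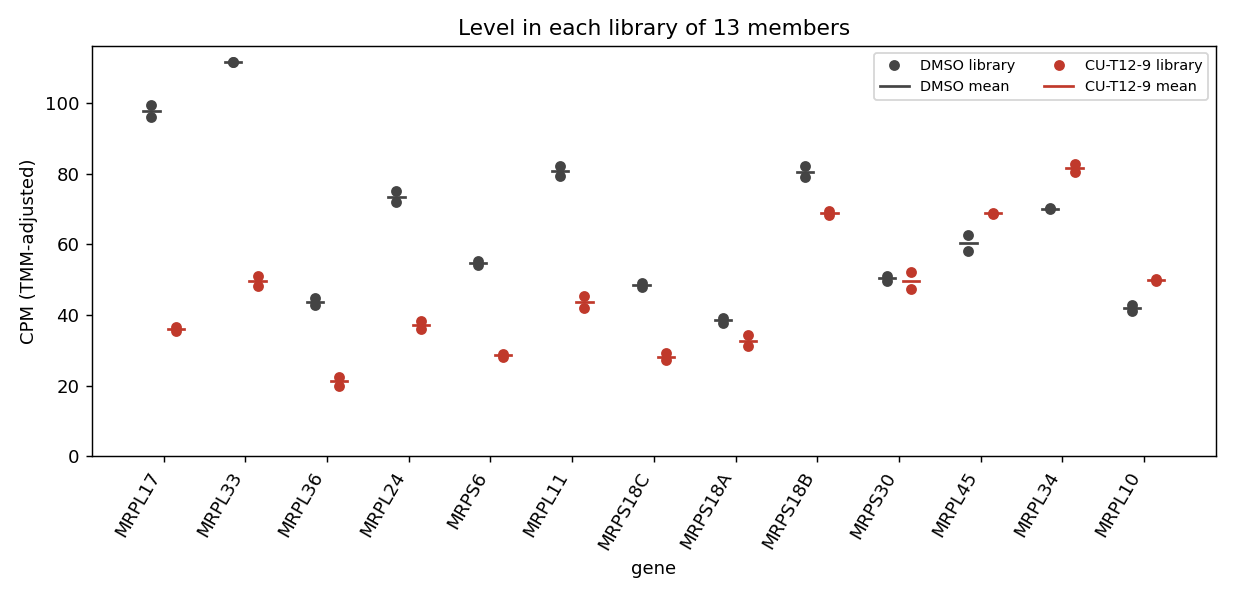
Level in CPM (vertical axis, from 0) of 13 members in each of the 4 libraries, with dots for libraries and short lines for the mean of 2. Grey is DMSO and red CU-T12-9. The red dots lie below the grey dots from MRPL17 to MRPS18B, overlap them in MRPS30 and lie above them in MRPL45, MRPL34 and MRPL10.

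The 6 members not past the threshold were of different kinds. MRPS30, a mitochondria-specific protein that also sits in the large subunit, had 51.2 and 49.6 CPM under DMSO and 47.3 and 52.2 CPM under CU-T12-9 (log2 fold change -0.02, SE 0.07, edgeR adjusted p = 0.813). MRPL9, counterpart of bacterial L9, had 71.4 and 71.9 CPM and then 66.8 and 68.6 CPM (log2 fold change -0.08, SE 0.05, edgeR adjusted p = 0.217). MRPS10, a protein of the small subunit head, had 90.4 and 83.1 CPM and then 74.3 and 83.9 CPM (log2 fold change -0.13, SE 0.07, edgeR adjusted p = 0.136). The groups overlapped for MRPS30 and MRPS10 and not for MRPL9. Without the second CU-T12-9 library MRPS10 was called lower (log2 fold change -0.23, edgeR adjusted p = 3.48e-05).

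The remaining uncalled members had few reads. MRPS24 had 21, 29, 30 and 26 reads in the 2 DMSO and then the 2 CU-T12-9 libraries (log2 fold change 0.28, SE 0.30, edgeR adjusted p = 0.447), with overlapping groups. MRPL53 had 58, 45, 73 and 54 reads (log2 fold change 0.42, SE 0.22, edgeR adjusted p = 0.128), and its CPM did not overlap. Without the second CU-T12-9 library MRPL53 was called higher (log2 fold change 0.60, edgeR adjusted p = 0.0246). MRPL30, the member left out by the filter, had 4, 3, 3 and 0 reads, at or near the floor of 3 reads in each library, and no fold is given.

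MRPS36 carries a ribosomal name but is known as a subunit of the 2-oxoglutarate dehydrogenase complex. It had 34.2 and 36.7 CPM under DMSO and 30.7 CPM in both CU-T12-9 libraries (log2 fold change -0.21, SE 0.07, edgeR adjusted p = 0.0253). By DESeq2 its adjusted p was 0.146, and it was 0.0582 and 0.256 without the first and the second DMSO library. In turn, 7 proteins of the mitochondrial ribosome stand in the table under other symbols, and 6 of them fell.

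GADD45GIP1, a protein of the large subunit, went from 101 and 106 CPM to 52.9 and 66.5 CPM (log2 fold change -0.79). AURKAIP1 (-0.66), MRP63 (-0.66), the peptidyl-tRNA hydrolase ICT1 (-0.58), CHCHD1 (-0.45) and the RNA-binding protein PTCD3 (-0.41) also fell. DAP3, a GTP-binding protein of the small subunit, had 131 CPM in both DMSO libraries and 144 and 137 CPM under CU-T12-9 and was not called (log2 fold change 0.10, edgeR adjusted p = 0.111). With either CU-T12-9 library left out, first and second in turn, it was called higher (edgeR adjusted p = 0.0472 and 0.00485). With these 7 proteins and without MRPS36, 71 of 81 tested genes were lower and 3 higher, with a median of -0.47.

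The levels of the members under DMSO differed widely. The mean ranged from 0.139 CPM for MRPL30 to 245 CPM for MRPL3 with a median of 60.2 CPM, and 60 of the 76 members lay between 10 and 100 CPM. Per kilobase of the principal transcript in GENCODE release 29 the highest were MRPL33 (215 CPM per kb), MRPL3 (144) and MRPS34 (141), and the lowest MRPL30 (0.0535), MRPS24 (1.43) and MRPL53 (1.77). These low rows share 19.5%, 23.2% and 45.2% of their exon bases with genes on the same strand. Reads in shared exons may be missing from them, so they do not by themselves show low expression, which was not tested. Sharing on the same strand was not particular to these rows. It was 21.1% for MRPL33, the highest per kilobase, and 68.2% for MRPL12, at 36.6 CPM under DMSO. The median over members was 44.9 CPM per kb, and from the tenth to the ninetieth percentile the values ran from 13.1 to 113. By coding length alone MRPL33 kept rank 1 of 76, MRPL3 took rank 7 and MRPS34 rank 8. MRPL42, with a transcript of 15582 bases for 426 coding bases, went from rank 72 to rank 20, and MRPS23 from rank 67 to rank 24. The spread per kilobase therefore depends on the length used. Across the 75 tested members the log2 fold change and the log2 level under DMSO had a Pearson r of -0.50, and of -0.27 over the 72 members above 10 CPM. Members are not independent samples and the DMSO level enters both measures, so these values only describe the set.

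Some member rows can share reads with other genes, since neither the strand setting nor the handling of shared exons is given. In 10 members more than 25% of the exon bases lie within exons of another gene in GENCODE release 29, on either strand, so these rows are uncertain. For 6 of them a named neighbour had reads enough for a test. FAM175A, opposite to MRPS18C (40.2% shared), rose (log2 fold change 0.53) while MRPS18C fell. NCAPD2, a condensin subunit opposite to MRPL51 (31.3% shared), fell by 0.79 on the log2 scale beside -0.73 for MRPL51, and the helicase gene C10orf2, opposite to MRPL43 (36.9% shared), fell by 0.72 beside -0.28 for MRPL43. GBAS, on the strand of MRPS17 (27% shared), fell by 0.29 beside -0.74 for MRPS17. OAZ3 opposite to MRPL9 (38.5% shared) and CCDC142 on the strand of MRPL53 (45.2% shared) were not called. The other 4 were MRPL12 (68.2% shared), MRPS18A (47.0%), MRPL38 (41.1%) and MRPS28 (35.8%). Without these 10 members, 59 of 65 tested members were lower and 3 higher, with a median of -0.46.

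The proteins that build and run the ribosome were also mostly lower. Of 26 genes for assembly factors and enzymes that modify its RNA, 14 fell and 2 rose (median -0.33). The fallers included RBFA, a maturation factor of the small subunit (31.8 ± 1.21 to 14.1 ± 0.729 CPM, SD, n = 2, log2 fold change -1.17), MTERFD1, a factor for the large subunit (-0.92), and the RNA methyltransferase MRM1 (-0.90). MTERFD2, the partner of the methyltransferase NSUN4, rose from 48.2 and 51.6 CPM to 130 and 108 CPM (log2 fold change 1.26, SE 0.09, edgeR adjusted p = 2.11e-06). The GTPase gene NOA1 rose by 0.56 on the log2 scale.

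Of 23 mitochondrial translation factors and partners 17 fell and 2 rose (median -0.34). The peptide deformylase PDF fell to 3.13 from 6.68 CPM (log2 fold change -1.09). SLIRP, which with LRPPRC stabilises mitochondrial messages, fell to 42.04 from 88.0 CPM (-1.07). The tRNA-thiolating enzyme TRMU fell to 25.5 from 47.9 CPM (-0.91). OXA1L, which inserts newly made chains into the inner membrane, rose to 197 from 135 CPM (log2 fold change 0.55), and the release factor gene MTRF1L to 37.3 from 31.0 CPM (0.27). MTRF1L was not called without the first DMSO library (edgeR adjusted p = 0.109).

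Among 20 genes of mitochondrial transcription and RNA processing 14 fell and 2 rose (median -0.38). The falls were led by the RNA-degrading enzyme PNPT1 (log2 fold change -0.86), the transcription factor TFB2M (-0.79) and TRMT10C of mitochondrial RNase P (-0.78), while the DNA polymerase POLG (0.31) and GRSF1 (0.26) rose. TFAM, which packages and activates the mitochondrial genome, fell (-0.43), and the RNA polymerase POLRMT was not called (-0.14, edgeR adjusted p = 0.0813), although it was called lower without the second CU-T12-9 library (-0.20) and with scaling to library totals only (-0.16). Of the 24 tested import and presequence-processing genes 20 fell and 1 rose (median -0.56). Here TOMM5 of the outer membrane translocase (-1.42), the peptidase MIPEP (-1.40) and TIMM21 (-1.16) had the largest falls, and the processing peptidase subunit PMPCB rose (0.45). One more import gene was called higher without the first CU-T12-9 library (TOMM20) and without the second (SPG7, also with RLE and upper-quartile factors). MRPL32 is known to be matured by the protease AFG3L2, and both fell (-0.29 and -0.37).

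Of the regulators known to act on nuclear genes for mitochondrial proteins, 9 were tested, 5 fell and 2 rose. MYC went from 472 and 470 CPM to 233 and 234 CPM (log2 fold change -1.01, SE 0.05, edgeR adjusted p = 1.33e-07). PPRC1 (-0.51), NRF1 (-0.45) and GABPA (-0.21) fell, while PPARGC1B (0.33) and ESRRA (0.29) rose. GABPA was not called by DESeq2 (adjusted p = 0.113) or without the first or the second DMSO library (0.138 and 0.0952). Whether any of these regulators bears on the members was not tested.

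The ribosomal RNAs of the same particle moved the other way. MT-RNR1, the RNA of the small subunit, had 146 and 148 CPM under DMSO and 319 and 331 CPM under CU-T12-9 (log2 fold change 1.15, SE 0.05, edgeR adjusted p = 8.61e-08). MT-RNR2, the RNA of the large subunit, had 1008 and 963 CPM and then 2330 and 2645 CPM (log2 fold change 1.34, SE 0.07, edgeR adjusted p = 2.25e-07). Both rose with no overlap between groups. Of the 13 mitochondrially encoded messages 8 rose and 1, MT-ND6, fell (median 0.23), led by MT-ND1 (0.53), MT-CO1 (0.50) and MT-ND5 (0.47). These counts rest on single libraries: 4 messages were higher without the second DMSO library, and 3 were lower without the second CU-T12-9 library. MT-ND3 was called higher without the first CU-T12-9 library and lower without the second. MT-ND6 was not called by DESeq2 (adjusted p = 0.199). A selection for polyadenylated RNA, which bears on how much mitochondrial RNA is captured, is not stated in the labels.

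Falls also outnumbered rises among the cytoplasmic ribosomal protein and respiratory chain genes. Of 82 tested cytoplasmic ribosomal protein genes 65 fell and 1, RPL28 (0.17), rose, with a median of -0.32 and the largest falls in RPL39L (-2.33), RPL22L1 (-2.09) and RPL17 (-0.87). The number of rises was 0 without either DMSO library or the second CU-T12-9 library, and 4 without the first CU-T12-9 library. Their rows are uncertain because many near-identical pseudogenes can take their reads. Of 77 tested nuclear genes of the respiratory chain and ATP synthase 56 fell and 4 rose, with a median of -0.28, and the rises numbered 2 without the second DMSO library and 8 without the first CU-T12-9 library. ATP5G1 (-1.06), NDUFS5 (-0.98) and UQCRQ (-0.92) led the falls, and NDUFB5 (0.43), NDUFA12 (0.32) and ATP5S (0.24) the rises. ATP5S was not called by DESeq2 or without either DMSO library (adjusted p = 0.085, 0.070 and 0.253). The summed level of the cytoplasmic genes changed by -0.28 and that of the respiratory chain genes by -0.32 on the log2 scale, beside -0.51 for the mitochondrial ribosomal proteins. The differences between these lists were not tested.

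**Figure D3:**
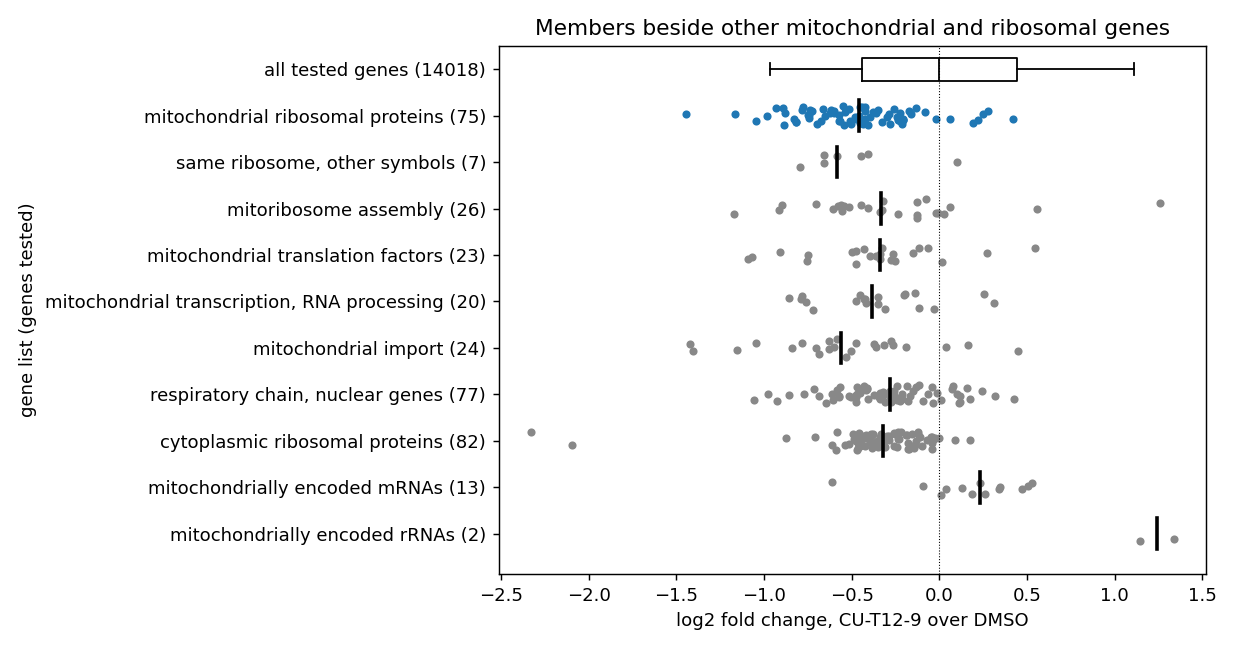
Log2 fold change (horizontal axis) of each tested gene in the mitochondrial ribosomal protein set (blue) and in 9 other lists (grey), with a black bar at the median. For all 14018 tested genes a box spans the quartiles and whiskers run from the tenth to the ninetieth percentile. The medians run from -0.58 for the ribosomal proteins under other symbols to 1.24 for the mitochondrially encoded rRNAs.

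RefSeq promoter windows of 250 bases before to 50 bases after the first listed start were found for 67 of the 76 members. Motifs were searched by exact match on both strands. The ETS core CCGGAAG was in 28 member promoters (41.8%), beside 10.7% of 27305 promoters of all genes and 20.1% of 9341 promoters of tested genes. The YY1 motif AAGATGGC was in 20 (29.9%), beside 3.03% of all and 5.68% of tested genes. The E-box CACGTG was in 6 (8.96%, beside 7.43% and 10.2%) and the NRF1 motif, as shown in capitals above, in 1, MRPL17 (1.49%, beside 1.36% and 2.40%). The last letters of the ETS core are the first of the YY1 motif, so matches of these motifs can overlap. Of the 67 promoters 24 held none of the 4 motifs and 12 at least 2 of them. A match is a description of the letters and not a bound site.

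The motifs also had different places. Of 37 ETS matches 31 lay upstream of the start, with a median position of -22, whereas 15 of 21 YY1 matches lay downstream of it, with a median position of 10. The median log2 fold change was -0.46 in 27 tested members with an ETS match and -0.45 in 39 without. It was -0.41 with the YY1 motif (20 members) and -0.47 without (46 members), and -0.51 with the E-box (6 members) and -0.46 without (60 members). These medians were not tested.

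**Figure D4:**
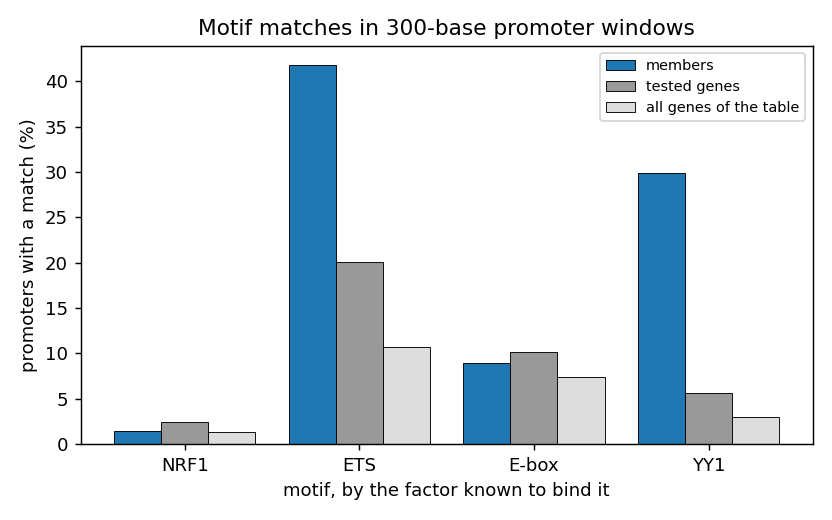
Share of promoter windows (vertical axis, percent) that hold each of 4 motifs, for 67 members (blue), tested genes (grey) and all genes of the RefSeq table (light). The blue bars for ETS and YY1, at 41.8% and 29.9%, stand above the others, and those for NRF1 and the E-box lie close to them.

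Several members start back to back with a gene on the other strand. In GENCODE release 29, 12 members had a tested protein-coding gene outside the set that started upstream on the opposite strand within 1000 bases. Neighbours were matched by symbol, so any that the count table lists under another name are not included. This comparison was added after the data were seen. Of these 12 neighbours 3 were lower, 4 higher and 5 not called, with a median log2 fold change of 0.18. The crossover nuclease gene EME1, which shares a start region with MRPL27, fell by 2.09 on the log2 scale, and the chaperonin subunit TCP1 (-0.69) and the complex I subunit NDUFS6 (-0.64) fell beside MRPL18 (-0.70) and MRPL36 (-1.05). The complex I gene NDUFB5 rose (0.43) beside MRPL47 (-0.57), and ZNF189 (0.22) beside MRPL50 (-0.57). PNPLA7 (1.63) and APBA3 (1.24) rose beside MRPL41 (-0.44) and MRPL54 (-0.38). With 12 pairs, these counts of lower and higher neighbours are near the shares over all tested genes, 33.2% and 32%.

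**Figure D5:**
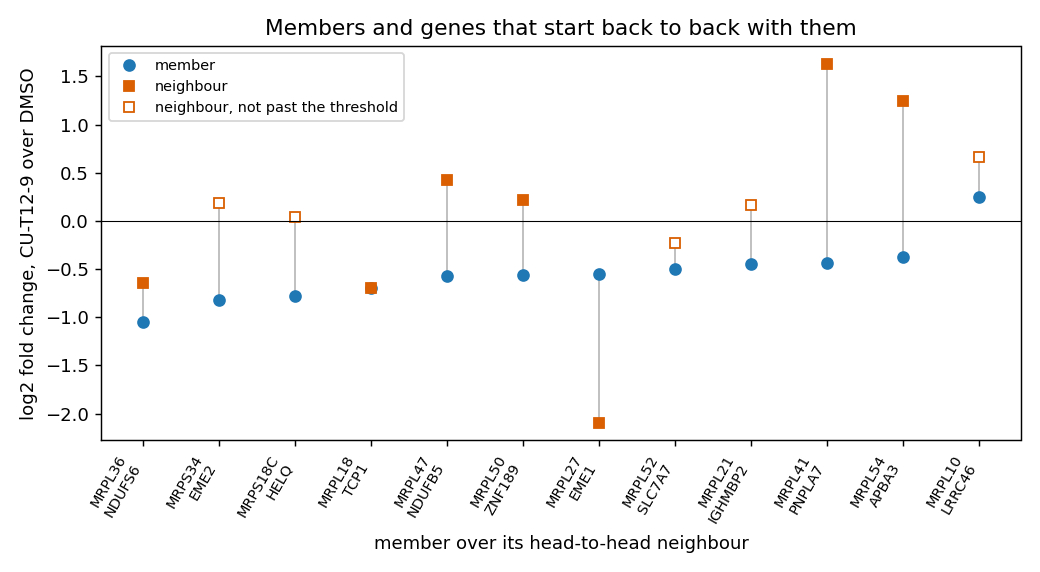
Log2 fold change (vertical axis) of 12 members (blue dots) and of the gene that starts back to back with each (orange squares, open where not past the threshold), joined by a line and ordered by the member's value. The squares range from -2.09 for EME1 to 1.63 for PNPLA7, while 11 of the 12 dots lie below 0.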

How the data were processed

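RNA of 2 DMSO and 2 CU-T12-9 libraries was measured by RNA-seq. The file the authors deposited holds unnormalized counts for 56638 gene symbols, with no rows without a gene. The submitters' processing notes name FastQC 0.11.7, TopHat2, featureCounts 1.5.2 and the build GRCh37. RNA came from a column kit, and library preparation was by standard Illumina methods, per the labels' protocols. For annotation, strand setting and multiply mapped reads the settings were not given in the sources used here.

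Counts were tested in R 4.3.3 with edgeR 4.0.16 (filterByExpr, TMM, quasi-likelihood test with group as the only term), with Benjamini-Hochberg adjustment over 14018 genes and a threshold of 0.05. The SE is the absolute log2 fold change over the square root of F. Alternatives used limma 3.58.1 (voom), DESeq2 1.42.0, other scalings and filters, glmTreat, a replicate block and each library left out. Library totals were 25867733 and 23892934 reads (DMSO) and 23201117 and 23087102 (CU-T12-9), and floors cover counting error only. The libraries of each group differed by more than counting noise (chi-square per degree of freedom 2.42 for DMSO and 6.99 for CU-T12-9), so neither pair was taken for repeat deposits of 1 library. This does not show separate cultures. Log2 CPM correlated across genes at 0.996 and 0.994 within groups and at 0.927 to 0.929 between them.

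The members, gene lists and tests were chosen with earlier results of these data known. Named were the 6 largest falls and up to 6 rises past the threshold at a mean of at least 5 CPM, the uncalled members at both ends, the 3 highest and lowest per length, the stalk and S18 proteins, MRPS36, proteins under other symbols, members left out by the filter, and in each other list the 3 largest changes in each direction with a few set regulators. Further members of fixed structural groups, other single members and the overlapping and neighbouring genes were named after their values were seen. Exon overlaps, transcript lengths and neighbours came from GENCODE release 29, which is on another build than the counts, and promoters from RefSeq (GRCh38.p14), matched by symbol.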

Additional observations from a re-analysis of the deposited data

How the results depend on the processing

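Over the reported fit and 12 other settings tested against no change (scalings, filters, limma-voom, DESeq2, a replicate block and each library left out), 55 members were called lower in every one, 0 higher in every one, and 0 in opposite directions. Members lower were 58 and members higher 2 with DESeq2. For these other settings, the replicate block and each library left out included, the shares over all tested genes are not given here. In the reported fit those shares were 33.2% lower and 32% higher, so the counts of members per setting have no matching background. The median log2 fold change of the members was -0.44 with RLE factors, -0.43 with upper-quartile factors, -0.47 with library totals only, -0.48 with no filter on low counts, -0.45 with at least 1 CPM in 2 libraries, -0.45 with DESeq2, and -0.47 with the proteins under other symbols and without MRPS36. These scalings and filters moved the median of all genes to between -0.014 and 0.037. The summed level changed by -0.48 with upper-quartile factors. Tested against 1.2-fold, 0 members were higher, and against 1.5-fold 18 were lower and 0 higher, as a stricter threshold does by construction.

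Leaving out 1 library at a time, where the lone library is assumed to vary like the other group, gave 56 to 65 members lower, 0 to 4 higher, a median of -0.51 to -0.45 and a summed change of -0.53 to -0.46. The count of members higher was 0 without the first DMSO library and 1 without the second. In these 12 settings the sign changed in 3 of the 75 tested members, and 0 of the 3 were called in the reported fit. With 1 library left out MRPL38 ranged from -0.10 to 0.24, MRPS30 from -0.09 to 0.08 and MRPS24 from -0.0032 to 0.58 in log2 fold change, and MRPS30 was 0.0077 with upper-quartile factors. The cause was not tested.

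The labels give both groups the replicate numbers 1 and 2. The deviations of same-numbered libraries from their group means correlated at 0.00795, so no shared deviation by number was seen. Pairs handled alike without a strong common effect could give the same value, so whether the numbers mark pairs stays unknown. With the replicate block 64 members were lower and 3 higher, with a median of -0.46. Few counted reads limit MRPL30, MRPS24, MRPL53 and MRPL38, the 4 members under 10 CPM. Each shares exon bases with a gene on its own strand (19.5%, 23.2%, 45.2% and 37.5% in that order). Members with more reads share such bases too, among them MRPL12 (68.2%) and MRPL33 (21.1%). Whether sharing lowers the counts was not tested.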
